A study of Caenorhabditis elegans with 4 samples.

Results

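The regions described here are the HTP-3 peaks called on chromosome II of Caenorhabditis elegans by chromatin immunoprecipitation and sequencing (ChIP-seq). They were chosen by position alone: every peak of the combined list that lies on chromosome II was a member, whatever its score. There were 1836 such peaks among 11716 in the whole combined list, 15.7% of the list on a chromosome that makes up 15.2% of the nuclear length. The same chromosome held 517 peaks in the list of ChIP replicate 1 and 630 in the list of ChIP replicate 2. The ChIP samples (n = 2) and the input DNA samples (n = 2) all came from hermaphrodites of the strain fem-2(b245), genotype fem-2(b245)III, labelled as young adults with a germline and grown at 20 °C. The growth protocol in the labels speaks of gravid adults. All samples carry the fem-2 allele and no other strain was analysed here, so nothing here sets the mutant against wild type. Extracts were of whole worms, whereas HTP-3 acts in the germline. No label tells whether separate cultures gave the replicates, and the spread over them may therefore be technical.

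HTP-3 belongs to the HORMA-domain family and is part of the meiotic axis, the protein core to which chromatin loops are tethered and along which homologous chromosomes synapse. In C. elegans it recruits the other HORMA-domain proteins of the axis and is required for meiotic double-strand breaks and for synapsis. Each worm chromosome has a pairing centre near one end, a region of repeated motifs bound by a zinc-finger protein, through which homologues find each other and begin to synapse. On chromosome II the pairing centre is at the left end and is bound by ZIM-1, which also serves chromosome III. Worm autosomes have a gene-dense centre with little crossing over and more repeat-rich arms where most crossovers occur.

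Chromosome II was taken to run from base 1 to base 15274814 of the WormBase WS220 build, the largest peak end in any list. Peaks were placed by their midpoints, and densities are in peaks per Mb. Each peak also carries a score from the authors' peak caller, whose scale is not stated, so scores were used only within one list. On chromosome II the combined scores ran from 1.32 to 161.72 with a median of 7.63. The replicate 1 scores ran from 50.63 to 3100 with a median of 165.37, and 7 peaks shared the top value of 3100. The replicate 2 scores ran from 50.35 to 3209.97 with a median of 159.31, and 9 peaks had exactly 3100. Since several peaks share that value, it may be a ceiling of the caller, although replicate 2 also has higher scores, and peaks at 3100 cannot be ranked among themselves.

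In density chromosome II lay near the mean of the genome. It carried 120.2 combined peaks per Mb, against 116.3 on the other 5 chromosomes together, a ratio of 1.034. The ratio was 1.035 in replicate 1 and 1.038 in replicate 2. Chromosome II ranked 3 of 6 in each list, below III and I. Its peaks covered 5.17% of its length in the combined list, 2.13% for replicate 1 and 8.66% for replicate 2. Its peaks were laid out unevenly along it, as follows.

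The left arm, where the pairing centre lies, was sparse. With the chromosome cut into 3 equal parts, the left part (1 to 5091604) held 320 combined peaks or 62.8 per Mb, against 667 or 131.0 per Mb in the right part (10183210 to 15274814). The left to right ratio was 0.48 in the combined list, 0.519 for replicate 1 and 0.525 for replicate 2, a mean of 0.522 ± 0.00377 over the replicates (SD, n = 2). In replicate 1 the left part had 18.5 peaks per Mb and the right part 35.5. In replicate 2 they had 23.0 and 43.8 per Mb. The left part was therefore the sparser one in both replicates. The SD covers only the spread between the 2 replicate ratios, which may be technical, and not the counting error of the peaks. By covered length the contrast was larger in the combined list, with 2.41% of the left part and 5.91% of the right part under peaks.

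On no other chromosome was the left to right ratio as low. In the combined list it was 0.797 on III, 0.84 on X, 1.15 on IV, 1.19 on I and 1.25 on V. Replicate 1 gave 0.519 on II against 0.817 to 1.24 elsewhere, and replicate 2 gave 0.525 against 0.668 to 1.51. The pairing centre lies at the right end of I and V and at the left end of the others. A sparser arm on the pairing centre side was thus seen on every chromosome but IV in the combined and replicate 2 lists. In replicate 1 it was seen on every chromosome, though on IV only at a ratio of 0.995. Among the 12 outer parts of the 6 chromosomes, the left part of II ranked 11 by density in the combined and replicate 2 lists and 12 in replicate 1. The right part of V was the sparser one in the combined list, at 61.1 per Mb. The right part of II stood near the other end of that order, at rank 3, 2 and 3 in the combined, replicate 1 and replicate 2 lists. No test of chromosome II against the others was made, since each chromosome gives a single value per list and the design has 2 replicates of one group.

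**Figure D1:**
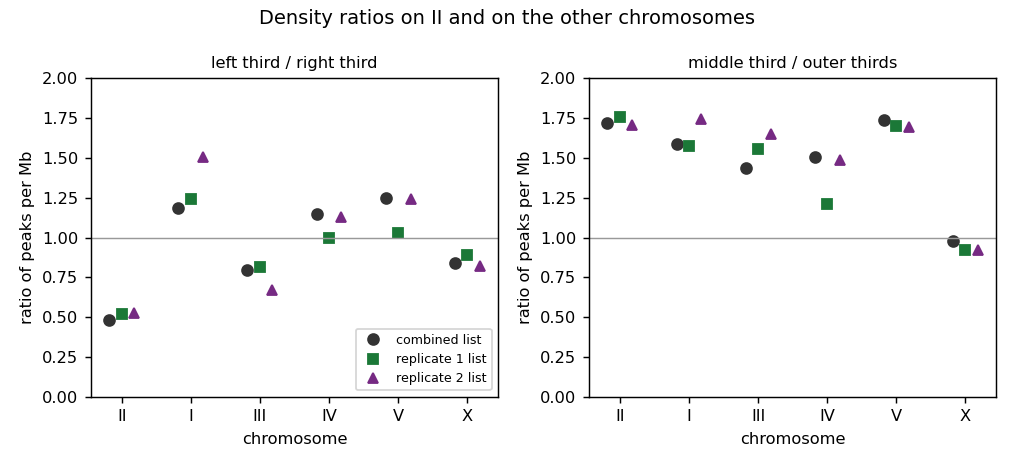
Density ratios on chromosome II and on each other chromosome: left over right part (left panel) and middle part over both outer parts (right panel), as ratios of peaks per Mb, with one marker per list. The left to right ratio of II lies at 0.48, 0.519 and 0.525, below every other chromosome in all 3 lists, while its centre to arm ratio of about 1.7 is close to that of V.

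The middle of the chromosome was the densest part. It held 849 combined peaks, 166.7 per Mb, and its density over that of both arms was 1.72 for the combined list, 1.76 for replicate 1 and 1.71 for replicate 2. Chromosome II had the second highest such ratio of the 6 in the combined and replicate 2 lists and the highest in replicate 1. Because the arms differ, this ratio averages unlike neighbours. The centre was 2.65 times as dense as the left part and 1.27 times as dense as the right part in the combined list. Accordingly the peaks of the chromosome were displaced to the right: the median peak lay 57.1% of the way from the left end in the combined list, 55.5% for replicate 1 and 55.7% for replicate 2. The outer quartiles of position were close in all lists, with 25% of peaks to the left of 5.94, 5.84 and 5.80 Mb and 75% to the left of 11.6, 11.7 and 11.6 Mb in the combined, replicate 1 and replicate 2 lists.

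Along 31 bins of about 500 kb, the sparse left arm ended within a few bins. The 7 bins from 492736 to 3941887 held between 12 and 28 combined peaks each. The next bin, 3941888 to 4434623, held 37, the bin after it 64, and the bin from 4927360 to 5420095 held 78. From there to 12318398 no bin fell below 58. Replicate 1 rose at the same place, with 4 to 9 peaks per bin in the 7 sparse bins, 15 in each of the following pair and 29 in the bin at 4927360. In replicate 2 the corresponding counts were 3 to 10, then 15, 22 and 33. The boundary thus lay left of the line that divides the chromosome into equal parts, and the left part as defined above included about 1 Mb of denser sequence. Between 1 and 4 Mb alone the density was 46.7 combined peaks per Mb, and between 4 and 5 Mb it was 105.

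The sparsest bin in the combined list was 1478208 to 1970943, with 12 peaks, or 24.4 per Mb, against a median bin of 125.8. It held 5 replicate 1 peaks and 3 replicate 2 peaks, the lowest count of any bin in replicate 2. The sparsest replicate 1 bins were farther in, at 2956416 to 3449151 and the bin after it, with 4 peaks each. The densest combined bin was 8869247 to 9361982, with 107 peaks and 217.2 per Mb. It ranked first in replicate 2 with 38 peaks and 5 of 31 in replicate 1 with 27, where 7883775 to 8376510 was the densest with 34. Bin counts of the replicates had a Spearman rho of 0.70 and a Pearson r of 0.674 over the 31 bins, which are neighbouring stretches of one chromosome and not replicates.

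**Figure D2:**
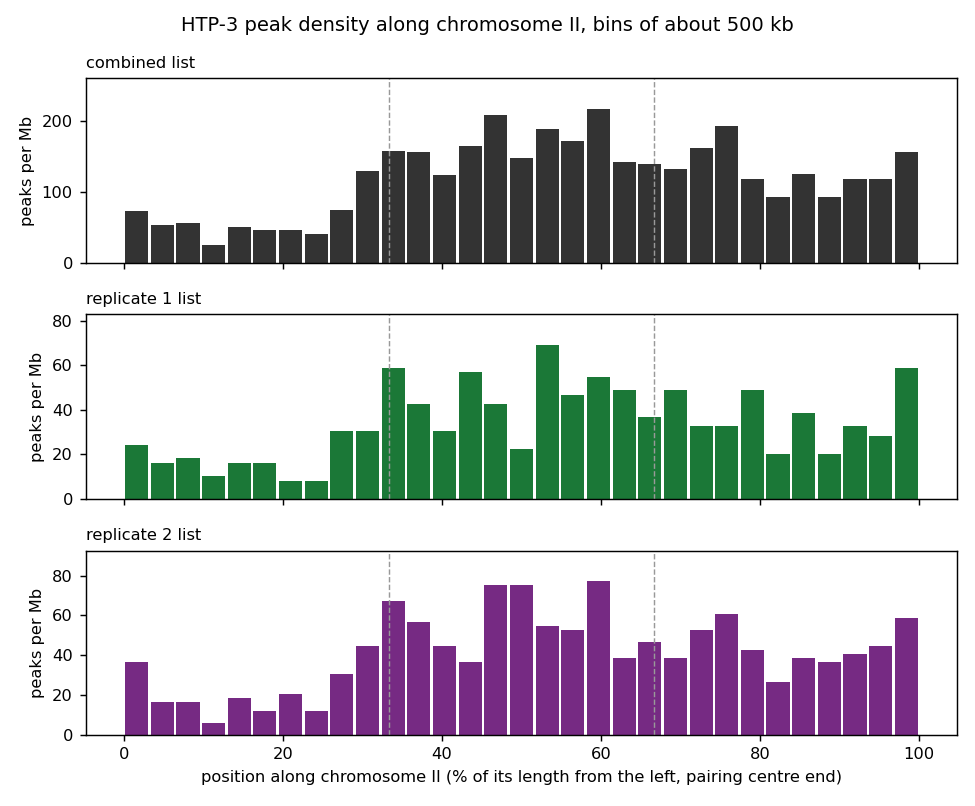
Peaks per Mb in 31 bins along chromosome II for the combined, replicate 1 and replicate 2 lists; the x axis is the position as a percentage of chromosome length from the left end, and dashed lines divide it into 3 equal parts. The left arm is low in all 3 lists up to a rise before the first dashed line, the first and last bins stand above the bins next to them, and most bins of the right arm lie above those of the left.

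At both ends of the chromosome the last 1 Mb was denser than the 3 Mb next to it, but this depended on the window. The first 1 Mb, at the pairing centre end, held 62 combined peaks, against 46.7 per Mb over the next 3 Mb, a ratio of 1.33. The ratio was 1.5 in replicate 1 (20 peaks against 13.3 per Mb) and 1.73 in replicate 2 (26 against 15.0 per Mb). On the other chromosomes the same ratio at the left end lay between 0.759 and 1.09 in the combined list, with 0.684 to 1.17 for replicate 1 and 0.729 to 1.07 for replicate 2. Among the other ends with a pairing centre, the right end of V was raised more, at 2.80, 2.82 and 3.19 in the combined, replicate 1 and replicate 2 lists. The right end of I was at 1.17, 0.808 and 1.17, and the left end of III at 0.759, 1.17 and 1.07. The left end of IV was at 1.09, 0.684 and 1.04, and that of X at 0.876, 1.03 and 0.818. At the right end of II the last 1 Mb held 135 combined peaks against 124.7 per Mb over the 3 Mb before it, a ratio of 1.08, with 1.34 in replicate 1 and 1.23 in replicate 2. At 62 peaks per Mb the left tip was still sparser than the right tip and than the chromosome mean. These ratios rest on 20 and 26 tip peaks at the left end in the replicates, and the window of 1 Mb was chosen with the profile in view. In bins of about 200 kb the combined density stayed at 64.7 and 74.6 per Mb from 1004922 to 1406890, as high as in the first 1 Mb, and was 9.95 per Mb in the bin after them. With a tip of 0.5 Mb the left ratio was 1.57, 1.71 and 2.40 in the combined, replicate 1 and replicate 2 lists, and with 1.5 Mb it was 1.26, 1.32 and 1.39. With 2 Mb, set against a stretch that takes in the denser bases between 4 and 5 Mb, it was 0.791, 1.00 and 0.76. At the right end the combined ratio was 1.38 with a tip of 0.5 Mb, but 0.96 with 1.5 Mb and 0.945 with 2 Mb, where replicate 1 gave 1.23 and 1.01 and replicate 2 gave 1.07 and 1.12.

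At the outermost bases the lists parted. Replicate 1 began with a 454 bp peak at bases 1 to 454, with a score of 158.31 near the middle of its list. The combined list began at 1380 to 1636 with a peak of score 6.81 that no replicate peak overlapped, and replicate 2 only at 18479 to 19599, with a score of 184.84. At the right end the last combined peak, 15274620 to 15274814, had a score of 3.71, exceeded by 84.1% of the combined peaks on II. The last replicate 1 peak was at 15263017 to 15263464 and the last replicate 2 peak at 15265781 to 15267080. At neither end did the outermost peaks of the 3 lists overlap each other.

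Spacing, which depends on the number of peaks in each part, showed the same asymmetry. Midpoints of neighbouring combined peaks were a median of 4.35 kb apart in the left part, 2.02 kb in the middle and 2.11 kb in the right part. In replicate 1 the medians were 30.2, 5.81 and 6.68 kb from left to right, and in replicate 2 they were 20.2, 8.40 and 9.96 kb. The middle and right parts were closer to each other in local spacing than either was to the left part. Long gaps followed the same order: stretches of 50 kb or more between neighbouring combined peaks made up 47.8% of the left part, against 19.1% of the right part and 13.6% of the middle. In replicate 2 the shares were 75.3%, 46.8% and 28.8% in the same order. In replicate 1, whose peaks are fewest, they were 81.2%, 72.3% and 53.3%, so the left and right parts were closer there. The counts of such gaps were 31, 15 and 10 in the combined list and 36, 30 and 19 in replicate 2, but 33, 39 and 28 in replicate 1, where the right part had the most. Over the whole chromosome the 56 gaps of this length took up 26.8% of the extent, against 11.4% to 38.5% on the other chromosomes.

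Short gaps were scarce in the left arm. Gaps of 1 kb or less made up 20.9% of the gaps between combined peaks in the left part, against 40.8% in the right part and 43.9% in the middle. In replicate 1 the shares were 19.1%, 30.9% and 28.6%, and in replicate 2 they were 7.69%, 17.9% and 22.8%. The left part had the lowest share in each list. Shares of long and short gaps also depend on peak density, and how far density alone sets them was not tested.

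**Figure D3:**
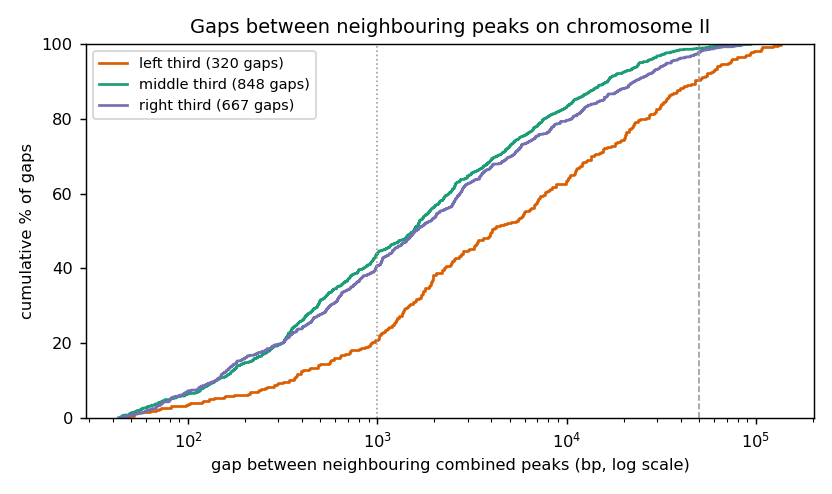
Cumulative percentage of gaps between neighbouring combined peaks on chromosome II against gap length in bp on a log scale, with one line for each of the 3 equal parts; the dotted line marks 1 kb and the dashed line 50 kb. The lines of the middle and right parts run close together, while the line of the left part is shifted to longer gaps, with 20.9% of its gaps at 1 kb or less.

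The 5 longest stretches without a combined peak all lay in the left part. The longest was 136.3 kb, from 2059288 to 2195578. The others were 2455182 to 2585562 (130.4 kb), 3684964 to 3808077 (123.1 kb), 3553811 to 3661972 (108.2 kb) and 1502321 to 1608920 (106.6 kb). The third of these, 3684964 to 3808077, held no peak in either replicate list. In the others 1 to 3 replicate peaks reached in, and the stretches free in all 3 lists were still 136.0, 114.7, 107.9 and 106.3 kb long. The 2 stretches between 3553811 and 3808077 also lay inside the longest gap of replicate 1, 383.2 kb from 3547605 to 3930851. That replicate 1 gap held 13 combined peaks, with scores of up to 41.3, and 3 replicate 2 peaks. The longest gap of replicate 2 was 225.6 kb, from 3077704 to 3303331, with 3 combined peaks and 1 replicate 1 peak in it. Of the 5 longest gaps, 3 were in the left part in replicate 1 and 4 in replicate 2.

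Peaks were mostly short, and short in a different way in each list. The median width on chromosome II was 290.5 bp in the combined list (quartiles 204 and 466), 480 bp in replicate 1 (329 and 660) and 1590 bp in replicate 2 (1163 and 2361). In the combined list 28 peaks reached 2 kb, 1.53% of the peaks and 14.0% of the covered length. In replicate 1 there were 15 such peaks, and in replicate 2 there were 207, or 32.9% of its peaks and 57.1% of its covered length. Width went with score within each list, with a Spearman rho of 0.646 in the combined list (n = 1836), 0.866 in replicate 1 (n = 517) and 0.684 in replicate 2 (n = 630). Both values come from the same called interval and are not independent.

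Left-arm peaks were narrower but not lower in score in the combined list. Their median width was 265 bp, against 298 bp in the right part and 298 bp in the middle. Their median score was 8.46, against 7.93 in the right part and 7.02 in the middle. In replicate 1 the median width was 452 bp in the left, 516 bp in the right and 465 bp in the middle part. In replicate 2 it was 1216, 1520 and 1758.5 bp. The ratio of left to right median width was 0.889 in the combined list, 0.876 for replicate 1 and 0.80 for replicate 2. Among peaks in the highest of 3 equal score classes of each list, median widths were 365 bp in the left and 493 bp in the right part in the combined list, 669 and 753 bp in replicate 1 and 2236.5 and 2700 bp in replicate 2. In the middle class they were 238.5 and 283 bp, 436.5 and 468 bp, and 1227 and 1443 bp in the same order. The lowest class differed less, with 188 and 201.5 bp, 273 and 280 bp, and 1075 and 1118 bp. In the replicate lists, unlike the combined list, the left part had the lower score than the right: 152.27 against 238.3 in replicate 1 and 130.21 against 180.11 in replicate 2. The middle part had 147.065 in replicate 1, below the left part, and 157.28 in replicate 2, above it.

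The share of peaks among the strongest was somewhat higher in the right part than in the others. Of the 184 combined peaks in the highest-scoring 10% on chromosome II, 33 were in the left part, 71 in the middle and 80 in the right part, or 10.3%, 8.36% and 11.99% of the peaks of those parts. In replicate 1 the shares were 10.6%, 7.44% and 13.3%, from 10, 18 and 24 peaks. In replicate 2 they were 5.13%, 9.31% and 13.5%, from 6, 27 and 30 peaks. The right part had the highest share in all 3 lists, and the lists did not agree on the order of the left and middle parts. By definition the share over the whole chromosome is about 10%, and whether the right part departs from it was not tested.

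Among the 10 highest-scoring combined peaks found in both replicates, 6 were in the right part, 3 in the middle and 1 in the left. Of all members 36.3% were in the right part, 46.2% in the middle and 17.4% in the left. Whether 10 peaks depart from these shares was not tested. The highest of all, with a score of 161.72, was a 1983 bp peak at 5055005 to 5056987, just inside the left part and to the right of the rise in density. Replicate 1 had 2 peaks there, with scores of up to 1811.38, and replicate 2 had 1 of 2989 bp with a score of 1926.36. In the middle part the highest was a 482 bp peak at 8460520 to 8461001, with a score of 161.22, at which replicate 1 had a 1207 bp peak and replicate 2 a 3806 bp peak. The highest on the right was a 1096 bp peak at 11096816 to 11097911, with a score of 155.59. The remaining peaks of the middle were at 9633755 to 9634720 and 8184702 to 8185433. Those of the right were at 14993312 to 14993716, 13872051 to 13873224, 11777691 to 11778464, 12339035 to 12339457 and 11874289 to 11875118. Widths among the 10 ran from 405 to 1983 bp with a median of 802 bp, so none was among the 5 widest. Their rank in the replicates was less uniform: at most 9.87% of replicate 1 peaks on II scored higher than the replicate 1 peak at the same site, but up to 21.7% in replicate 2, for the peak at 12339035.

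The 5 widest peaks were spread over the whole chromosome, and 2 of them lay in the sparse left arm. The widest combined peak ran from 10541727 to 10554319 in the right part, 12593 bp with a score of 112.83. Replicate 1 called 11362 bp of it as one peak with a score of 3100, the top value of that list on II. Replicate 2 called a single 22600 bp interval from 10541515 to 10564114, the widest peak on the chromosome in any list, with a score of 1891.64. That interval took in 7 combined peaks and 6 replicate 1 peaks. The peak next in width, 5332438 to 5341217 (8780 bp, score 79.1), lay near the left edge of the middle part. Replicate 1 had 2 peaks there, with scores of up to 3100, and replicate 2 had 1 with a score of 3100.

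On the left arm, the peak at 1144370 to 1153141 was 8772 bp wide with a combined score of 49.2. Replicate 1 had 3 peaks there, the widest of 3177 bp with a score of 1702.48, and replicate 2 one peak of 9976 bp with a score of 3100. The peak at 693758 to 699158 was 5401 bp wide with a combined score of 53.9. It stood alone, 60137 bp from its neighbour on the left and 12041 bp from its neighbour on the right. Replicate 1 had 3 peaks there, with scores of up to 3100, and replicate 2 had 1 with a score of 3100. Both of these wide combined peaks lay in the first 3 bins of the profile, near the pairing centre end. The remaining wide peak, 7893382 to 7900653 (7272 bp), differed from the others in its low score of 12.6, which 30.8% of the combined peaks on II exceeded. Replicate 1 split it into 8 peaks, none above 293.64, whereas replicate 2 covered it with one peak of 10570 bp and a score of 1383.86.

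**Figure D4:**
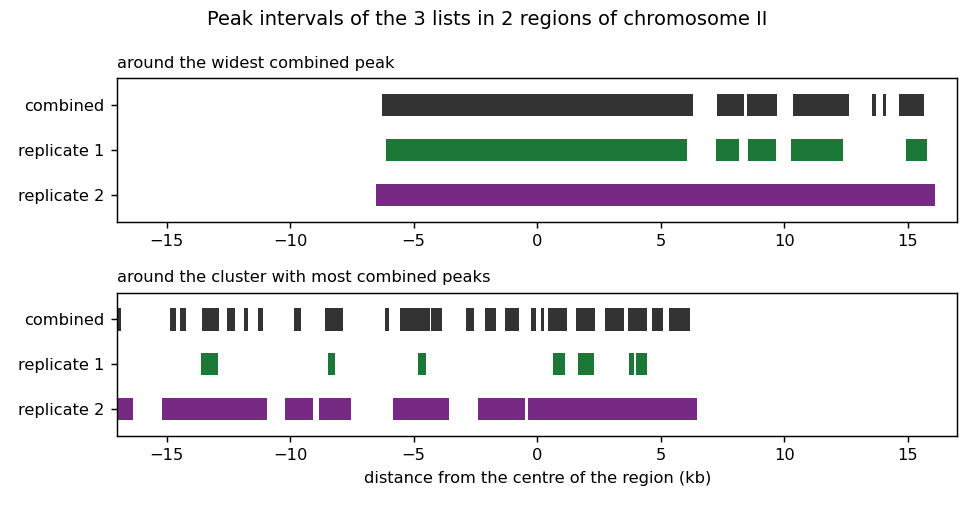
Peak intervals of the combined, replicate 1 and replicate 2 lists around the widest combined peak of chromosome II (top) and around its largest cluster of combined peaks (bottom), drawn to scale as distance in kb from the centre of each region. At the widest peak the combined and replicate 1 lists share a block of about 12 kb that replicate 2 joins to the peaks on its right, while in the cluster many short combined peaks lie over few replicate peaks.

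Clusters were defined as chains of 3 or more peaks with gaps of at most 1 kb. The combined list held 163 of them on chromosome II, with 689 peaks, 37.5% of the members. A further 185 chains were pairs and 777 peaks stood alone. Chromosome II ranked 2 of 6 in this share, which ran from 26.2% to 39.6% on the other chromosomes. Of the clusters, 53 had 5 or more peaks. Clustered peaks made up 17.2% of the peaks in the left part (15 clusters), against 42.4% in the right part (70) and 41.3% in the middle (78). In replicate 1 the shares were 12.8%, 30.9% and 24.4%, and in replicate 2 they were 2.56%, 11.2% and 13.8%. Peak density was also lowest in the left part, but the order of the middle and right parts matched that of density only in replicate 2. How far density sets the clustered share was not tested. Replicate 2 had 1 cluster in the whole left part.

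The 4 clusters with the most peaks were all in the middle part. The largest had 14 combined peaks within 12.4 kb, from 9120065 to 9132419, with a median width of 515.5 bp and a median score of 5.36. Replicate 1 had 5 peaks in it and replicate 2 had 3. Next came 13 peaks from 6825826 to 6839416, where replicate 1 had 5 peaks but replicate 2 had 1, which began at 6837933 and left most of the cluster bare. The 611 bp peak at 6828892 to 6829502 in this cluster was the highest-scoring combined peak on chromosome II without a counterpart in either replicate, at 29.2. The reverse was seen in the next pair of clusters. One, of 12 peaks from 8124812 to 8134888, lay under 1 replicate 2 peak of 10734 bp, and the other, of 11 peaks from 8476079 to 8485919, met 1 of 8549 bp that reached 9 of them. The 8549 bp peak spanned 10 replicate 1 peaks, more than any other replicate 2 peak on the chromosome. Next, 3 clusters tied at 9 peaks. Those from 6841094 to 6849651, 1.68 kb to the right of the one with 13, and from 5276752 to 5283105 were in the middle part, and the one from 14599901 to 14611452, the longest of them at 11.6 kb, was in the right part.

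Most clusters of the combined list met a single replicate 2 peak. Of the 163 clusters, 120 (73.6%) met exactly 1 replicate 2 peak, 34 met several and 9 met none. Replicate 1 had several peaks in 64 clusters, 1 in 48 and none in 51. Clustered peaks were wider than peaks that stood alone, with a median of 362 against 260 bp, at a similar median score of 7.56 against 7.81. Of the clustered peaks 29.3% were found in both replicates, against 16.9% of those alone, and 14.9% in neither, against 57.8%. Wide replicate 2 peaks reach several short neighbours at once, and how far this sets those shares was not tested.

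Most replicate 1 peaks on chromosome II met a replicate 2 peak, while about as many replicate 2 peaks met a replicate 1 peak as did not. An overlap of at least 1 bp with a replicate 2 peak was found for 457 of the 517 replicate 1 peaks (88.4%, 95% Wilson interval 85.3 to 90.9). In the other direction it was found for 325 of the 630 replicate 2 peaks (51.6%, interval 47.7 to 55.5). With all replicate peaks set to the median width of replicate 1, the share of replicate 1 peaks fell to 50.1%, so the value depends on the deposited peak widths. That setting changed the widths in both replicates, and the part of replicate 2 alone was not tested. The shares on the other chromosomes at the deposited widths were 87.3% and 51.2%, inside these intervals. Among replicate 1 peaks the share was 77.7% in the left part (73 of 94, interval 68.2 to 84.9), against 88.4% in the right part (160 of 181, interval 82.9 to 92.3) and 92.6% in the middle (224 of 242, interval 88.5 to 95.2). The interval of the left part overlaps that of the right part and not that of the middle. Replicate 2 peaks also covered the least of the left part, 3.76% against 9.07% of the right part and 13.1% of the middle. How far this sets the shares was not tested. For replicate 2 peaks the shares were 48.7%, 53.4% and 51.4% in the left, right and middle parts, with overlapping intervals. Peaks found in the other replicate had the higher scores, a median of 184.78 against 91.91 in replicate 1 and 339.2 against 93.16 in replicate 2.

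In 244 pairs in which exactly 1 peak of each replicate met, replicate 2 was wider in 243, by a median of 3.49 times (quartiles 2.44 and 4.99). The midpoints were a median of 94.8 bp apart. The median ratio was 2.86 in the left part, 3.96 in the middle and 3.53 in the right part. Boundaries in these pairs were therefore seldom shared, and a reciprocal overlap of 50% was reached by 6.19% of replicate 1 peaks.

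The share of combined peaks without a replicate counterpart was highest in the left part. Both replicates overlapped 411 of the 1836 members (22.4%, interval 20.5 to 24.4), only replicate 2 a further 725 (39.5%), only replicate 1 a further 38 (2.07%), and 662 (36.1%, interval 33.9 to 38.3) had no counterpart. On the other chromosomes these shares were 22.6%, 37.8%, 3.10% and 36.5%. In the left part 45.9% of the peaks had no counterpart (147 of 320, interval 40.6 to 51.4), against 37.0% in the right part (247 of 667, interval 33.4 to 40.8) and 31.6% in the middle (268 of 849, interval 28.5 to 34.8). The share found in both was 19.4%, 22.2% and 23.7% in the same order, with overlapping intervals. The intervals cover the counting error of peaks and treat neighbours as independent. Replicate 2 peaks covered 3.76% of the left part, 9.07% of the right part and 13.1% of the middle. Replicate 1 peaks covered 1.12%, 2.47% and 2.81% in the same order. How far this coverage sets the shares was not tested. The median score of peaks in both was 40.2 in the left part, 40.7 in the right part and 27.15 in the middle, so supported left-arm peaks scored about as high as those of the right arm.

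**Figure D5:**
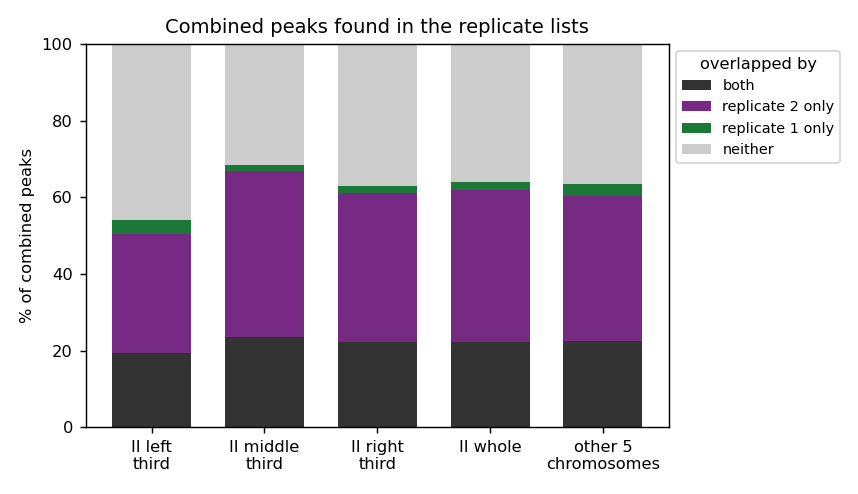
Percentage of combined peaks overlapped by at least 1 bp by both replicates, by 1 replicate only or by neither, for the left, middle and right parts of chromosome II, for II as a whole and for the other 5 chromosomes together. The left part has the largest share without a counterpart, 45.9%, and II as a whole resembles the other chromosomes.

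The left arm was the sparser one among well supported and unsupported peaks alike. For peaks in both replicates the densities were 12.2 per Mb in the left part, 29.1 in the right part and 39.5 in the middle, a left to right ratio of 0.419. For peaks found only in replicate 2 the ratio was 0.381, and for peaks in neither replicate it was 0.595, while the 38 peaks found only in replicate 1 were equally dense in both arms. The centre to arm ratio was 1.91 for peaks in both, 2.04 for those only in replicate 2 and 1.36 for those in neither. Both contrasts were therefore larger among peaks overlapped by a replicate 2 peak than among those without a counterpart. Replicate 2 peaks themselves covered 3.76% of the left part, 9.07% of the right part and 13.1% of the middle. How far this coverage sets the difference between those classes was not tested.

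Support rose with score. In the highest-scoring quintile of the members 80.1% were in both replicates (294 of 367, interval 75.7 to 83.9) and 1.91% in neither, whereas in the lowest quintile 1.09% were in both (4 of 368) and 53.3% in neither. Few replicate peaks were missing from the other 2 lists: 15 of 517 in replicate 1 (2.90%) and 12 of 630 in replicate 2 (1.90%). The highest-scoring of these in replicate 1 were at 4642316 to 4643811 (score 379.55), 12843692 to 12846179 (297.91) and 9631742 to 9632327 (270.42), the last of which lay 1.43 kb to the left of one of the 10 highest combined peaks. In replicate 2 they were at 14033292 to 14034747, 14298822 to 14300355 and 11844883 to 11846455, with scores of 62.6 to 69.4, all low in that list. After the peak at 6828892, the highest combined peaks without a counterpart were at 11184927 to 11185183 (25.2) and 410831 to 411187 (24.4).

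The number of combined peaks under a replicate peak differed between the replicates. A replicate 1 peak on II met a mean of 1.00 combined peaks, and 481 of 517 met exactly 1. A replicate 2 peak met a mean of 1.81, and 282 of 630 (44.8%) met several, up to 12. Replicate 2 peaks of 2 kb or more met a mean of 2.99 and narrower ones 1.23. Genes and sequence under the peaks were not analysed here, since the annotation at hand is of another genome build than the lists.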

How the data were processed

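HTP-3 ChIP-seq peak lists of 2 ChIP replicates and a combined list were used, and the peaks on chromosome II are described. Per the file headers, coordinates are on WormBase WS220; BWA and ce10 are named in the submitters' processing notes. The deposited source column names MACS without a version for both replicate lists and MACS v2 for the combined one. The peak score is the authors' deposited value on an unstated scale and was compared only within a list. Neither the control, nor the thresholds, nor how the lists were combined is given in the sources used here. Read depth is unknown, and no values of the input libraries were used. Per the labels' protocols, ground frozen worms were crosslinked in EGS for 20 min and in EGS with formaldehyde for 10 min more, and 5 µg of antibody was used.

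Densities by peak midpoint, gaps, clusters and overlaps were computed in Python 3.11.15 (scipy 1.17.1, pandas 2.3.3, numpy 2.4.6; plots with matplotlib 3.10.9), which was checked on simulated data. Chromosome extent was the largest peak end in any list. Shares carry 95% Wilson intervals, which cover counting error only. With 2 replicates of one group no test was made. Named regions were the 10 highest-scoring combined peaks in both replicates, the highest in each part, the 5 widest, the 5 longest gaps, the 5 largest clusters with their ties, the end peaks, extreme bins, the replicate 2 peak spanning most replicate 1 peaks, and the 3 highest-scoring unmatched peaks of each list. The members and these rules were chosen with earlier results of these data known. The alternatives tried were each replicate list alone, the 50% of peaks with the highest scores, merged neighbours, other arm boundaries, bins, linking distances and overlap rules, and covered length in place of number; peaks in both replicates only and other windows for the chromosome tips were added after the data were seen.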

Additional observations from a re-analysis of the deposited data

How the results depend on the processing

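The following directions on chromosome II held under every alternative tried. Its density was at or above the pooled density of the other 5 chromosomes, although III and I were each denser in each list. Its left part was sparser and had narrower peaks than its right part, and its centre was denser than its arms. Values moved, however. With each replicate list alone the density ratio to the other chromosomes was 1.035 to 1.038, the left to right ratio 0.519 to 0.525, the centre to arm ratio 1.71 to 1.76, the width ratio 0.80 to 0.876, the clustered share 10.8% to 24.6% and the median spacing 8.01 to 10.6 kb, against 2.27 kb in the combined list. With the 50% of peaks with the highest scores, the values were 1.015, 0.494, 1.53, 0.796, 15.3% and 6.31 kb in the same order, 43.1% of combined peaks were in both replicates and 95.4% of replicate 1 peaks in replicate 2. Merging peaks under 500 bp apart gave 1.001, 0.568, 1.54 and 0.826 for the 4 ratios and a spacing of 4.40 kb. By covered length II stood at 1.044 and the left to right ratio was 0.408. That ratio was 0.382 with the outer 25% at each end as arms and 0.471 with arms of 5 Mb. Linking distances of 500 bp and 2 kb put 22.1% and 55.0% of peaks in clusters. Among peaks in both replicates, a setting chosen after seeing the data, the left to right ratio was 0.419, the centre to arm ratio 1.91, the width ratio 0.739, the clustered share 14.4% and the spacing 12.7 kb. A reciprocal overlap of 50% left 2.12% of combined peaks in both replicates and 6.19% of replicate 1 peaks in replicate 2; these were 15.4% and 50.1% when replicate peaks were set to the median width of replicate 1. The densest bin had 259 peaks per Mb with bins of 200 kb and 196 with bins of 1 Mb, and the sparsest 9.95 and 45.2. The lists also differ in length and peak width, so their clustered shares and spacing are not on one footing; the cause of these shifts was not tested. The ratio of the chromosome tips to the stretches next to them, whose windows were varied after seeing the data, turned below 1 in the combined list at the left end with a tip of 2 Mb (0.791) and at the right end with tips of 1.5 Mb (0.96) and 2 Mb (0.945). No paired analysis was possible because no values of the input samples were used and the ChIP samples form one group.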
